A study of Arabidopsis thaliana with 4 samples.

Results

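The DNA methyltransferase genes of Arabidopsis thaliana were followed in seedlings labelled vim1,2,3 and in wild-type Col seedlings. The family was taken as 8 loci, MET1 (AT5G49160), MET2a (AT4G14140), CMT1 (AT1G80740), CMT2 (AT4G19020), CMT3 (AT1G69770), DRM1 (AT5G15380), DRM2 (AT5G14620) and DNMT2 (AT5G25480), and its members on the array were all probes whose transcript accession maps to one of them. These were 9 of the 43603 probes, 2 for CMT1 and 1 for each of the other genes, so that 8 of the 25347 loci with a probe belong to the family. Testing was limited to probes that the scanner software called well above background on 3 or more of the 4 arrays, in either RNA. This left 5 members (MET1, CMT2, CMT3, DRM2 and DNMT2) among 20525 genes tested, while MET2a, CMT1 and DRM1 were too dim.

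The study compared a vim1,2,3 triple mutant with Col on 4 two-colour arrays, each holding the RNA labelled vim1,2,3 in Cy5 and the Col RNA in Cy3. All seedlings were 14 days old and grown on B5 medium in days of 16 h light and 8 h dark, and all were harvested 6 h into the light period. The labels do not give the 3 mutant alleles or the organs taken, and the series calls the 4 arrays independent biological samples. The dyes were never exchanged, so a dye effect on a probe cannot be told apart from a difference between genotypes, and p-values measure the spread of these 4 samples only.

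Plant DNA methyltransferases divide the work by sequence context. MET1 copies CG methylation onto the new strand after replication and depends on VIM proteins, which bind hemimethylated DNA. The chromomethylases CMT2 and CMT3 bind histone H3 methylated at lysine 9 and methylate cytosines outside CG, and the DRM enzymes act at the end of RNA-directed DNA methylation, where small RNAs guide them. DNMT2 has the fold of a DNA methyltransferase and is known for methylating transfer RNA.

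Of the genes named by the genotype, VIM1 followed it on 4 of 4 arrays, and VIM2 and VIM3 on arrays 1 and 2. The log2 ratio of the brighter VIM1 probe, RNA labelled vim1,2,3 over Col, was -2.22, -2.46, -1.61 and -0.74 on arrays 1 to 4, and that of the other VIM1 probe -2.20, -2.56, -1.69 and -2.30. The ratio of the VIM2 probe was -1.42, -1.31, 1.82 and 1.11, and that of the VIM3 probe -1.06, -1.29, 1.61 and 0.25. The brighter probe of VIM4, which the genotype does not name, had -0.96, -1.63, 2.22 and 0.61. The other VIM4 probe had 0.13, -1.10, 2.36 and 1.09, and so was not lower on array 1. On arrays 3 and 4 the VIM2 and VIM3 probes thus went against the label, while both VIM1 probes followed it. Whether these probes lie outside the mutated parts of the genes is not known here. Why the VIM2 and VIM3 ratios changed sign between arrays was not tested. The 4 arrays were averaged as replicates all the same, and the mutant RNA is called the RNA labelled vim1,2,3 throughout. Values from arrays 1 and 2 alone, a choice made after these probes were seen, are given beside the results. The median raw signal on arrays 1 to 4 was 949, 967.5, 1718 and 1312 for the RNA labelled vim1,2,3, and 670.5, 637, 1270.5 and 966 for Col. The share of spots well above background was 69.6%, 68.6%, 81.1% and 81.5% for the RNA labelled vim1,2,3, and 75.8%, 77.8%, 85.2% and 84.3% for Col. Both measures were lower on arrays 1 and 2 than on arrays 3 and 4, and the part of this in the ratios was not tested. The ratios of array 2 resembled those of the others least, with correlations over 34439 probes of 0.42 to 0.57, against 0.63 to 0.69 among arrays 1, 3 and 4.

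None of the 5 measured methyltransferases was called different. All 5 mean ratios were below 0, at -0.03 to -0.58, but 54.1% of all genes tested also had a mean below 0. A call needed an adjusted p under 0.05 in limma, over all 20525 genes, and a change of at least 2-fold. By that rule 5.34% of genes were called, 3.22% higher and 2.13% lower in the RNA labelled vim1,2,3, and 0 of 5 members. At an adjusted p under 0.05 without the fold, 11.6% of genes passed and again 0 of 5 members. At an unadjusted p under 0.05, 1 member (MET1) was lower, as were 18.2% of all genes, and 0 members were higher, against 15.1% of all genes. In the fit over single probes, where 6.41% of 34439 probes were called, no probe of the family was. Each measured member has a single tested probe, so this fit used the same ratios and is no separate check.

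MET1, the maintenance enzyme for CG methylation, stood a little lower in the RNA labelled vim1,2,3 on each array. Its normalized log2 level was 12.01, 12.28, 11.90 and 11.29 in the RNA labelled vim1,2,3 on arrays 1 to 4, against 12.85, 12.44, 12.13 and 12.02 in Col. The range in the RNA labelled vim1,2,3 overlaps that in Col, and arrays 1 and 4 had the wider gaps. The 4 log2 ratios were -0.84, -0.16, -0.23 and -0.73, a mean of -0.49 ± 0.35 (SD, n = 4) with a 95% interval of -0.92 to -0.06. In limma this gave an unadjusted p of 0.0325 and an adjusted p of 0.117, so MET1 was not called. The interval does not reach a 2-fold difference. A ratio below 0 on 4 of 4 arrays was found for 22.5% of all genes, and a ratio above 0 on 4 of 4 arrays, shown by 0 members, for 18.5%. Of all genes, 17.6% had a lower mean than MET1. Arrays 1 and 2 alone gave a mean of -0.50. In seedling RNA, fewer cells that express a gene and less RNA per cell cannot be told apart.

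CMT2, which methylates CHH sites in long heterochromatic transposons, had the lowest mean of the family and the widest spread. Its log2 level was 8.71, 9.90, 9.18 and 8.90 in the RNA labelled vim1,2,3, against 10.19, 9.27, 9.75 and 9.80 in Col. Arrays 1, 3 and 4 were lower in the RNA labelled vim1,2,3, while array 2 was higher, since it held both the highest level in the RNA labelled vim1,2,3 and the lowest in Col. The ratios were -1.48, 0.63, -0.57 and -0.90, a mean of -0.58 ± 0.89 (SD, n = 4) with a 95% interval of -1.39 to 0.23 and an adjusted p of 0.272. The same split appeared in the scanner software's own ratios, -2.31, 0.74, -0.69 and -1.04. Without array 2 the mean was -0.98 and the adjusted p from limma 0.0481, just short of 2-fold and so still not called. Without array 1 it was -0.28, and from arrays 1 and 2 alone -0.43, so the size of the CMT2 difference rests on which arrays are used. The pattern of lower values on arrays 1, 3 and 4 and a higher one on array 2, shared by CMT2 and DRM2, was found for 8.19% of all genes.

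CMT3, the main CHG methyltransferase, showed no constant direction. Its log2 level was 11.87, 11.83, 11.70 and 11.56 in the RNA labelled vim1,2,3, against 12.17, 11.42, 11.52 and 11.97 in Col. Levels were tight in the RNA labelled vim1,2,3, at 11.74 ± 0.14 (SD, n = 4), and lay inside the range of the Col levels, at 11.77 ± 0.36. The ratios were -0.30, 0.40, 0.18 and -0.41, lower on arrays 1 and 4 and higher on arrays 2 and 3. The mean was -0.03 ± 0.39 (SD, n = 4), with a 95% interval of -0.49 to 0.42 and an adjusted p of 0.915 in limma. The interval excludes a 2-fold difference either way, which is a limit on its size and does not show equal levels. The sign turned when array 1 or array 4 was left out, and arrays 1 and 2 alone gave 0.05.

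**Figure D1:**
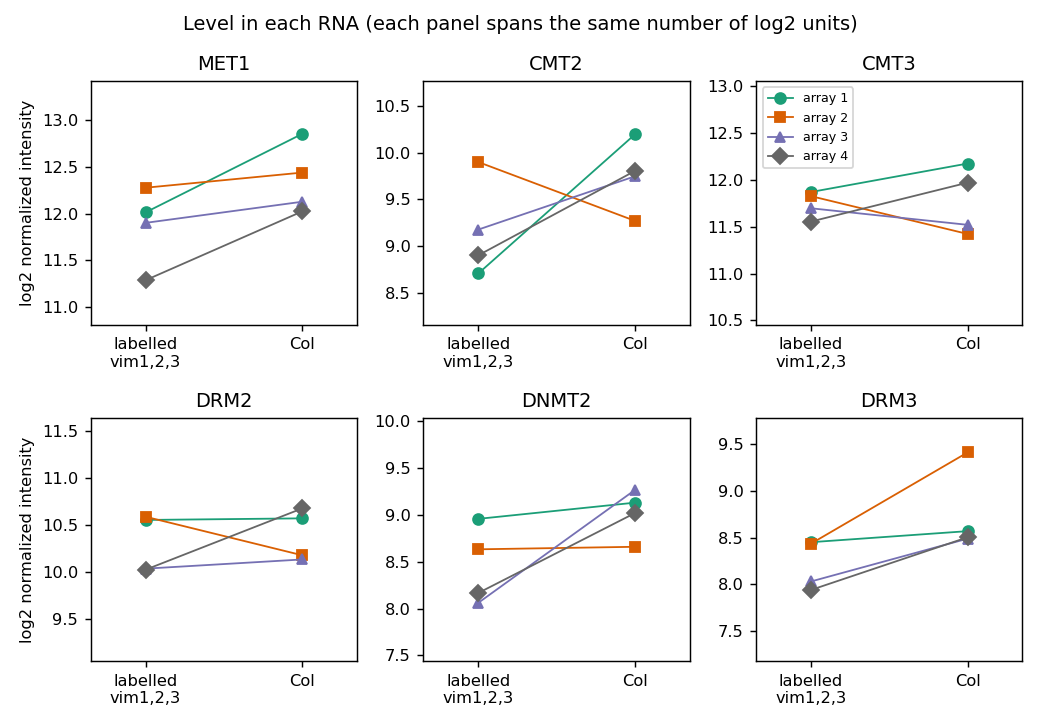
Normalized log2 levels of the 5 measured methyltransferases and the related gene DRM3 on each array, with the RNA labelled vim1,2,3 (Cy5) left of Col (Cy3) and lines joining the RNAs of 1 array. MET1 and DNMT2 lines fall toward the RNA labelled vim1,2,3 on 4 of 4 arrays, the array 2 lines of CMT2, CMT3 and DRM2 run the other way, as does that of CMT3 on array 3, and the groups overlap for 5 of 5 members but not for DRM3.

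DRM2, the main de novo enzyme of RNA-directed DNA methylation, also lacked a constant direction. Its log2 level was 10.56, 10.59, 10.04 and 10.02 in the RNA labelled vim1,2,3, against 10.57, 10.18, 10.13 and 10.68 in Col. Array 1 was nearly level between the RNAs, array 2 was higher in the RNA labelled vim1,2,3 and array 4 was lower. The ratios were -0.02, 0.41, -0.10 and -0.65, a mean of -0.09 ± 0.44 (SD, n = 4), with a 95% interval of -0.58 to 0.40 and an adjusted p of 0.786. Without array 4 the mean was 0.10, and from arrays 1 and 2 alone 0.20, both of the opposite sign.

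DNMT2, the transfer RNA methyltransferase, was the other member with 4 of 4 ratios below 0. Its log2 level was 8.96, 8.63, 8.06 and 8.17 in the RNA labelled vim1,2,3, against 9.13, 8.66, 9.27 and 9.02 in Col. The gap was small on arrays 1 and 2 and wide on arrays 3 and 4. The ratios were -0.17, -0.03, -1.20 and -0.85, a mean of -0.56 ± 0.56 (SD, n = 4), with a 95% interval of -1.13 to 0.0042 and an adjusted p of 0.152 in limma. Arrays 1 and 2 alone gave -0.10, so most of the DNMT2 difference came from the arrays on which VIM2 and VIM3 went against the label. The part of those arrays in this difference was not tested further.

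**Figure D2:**
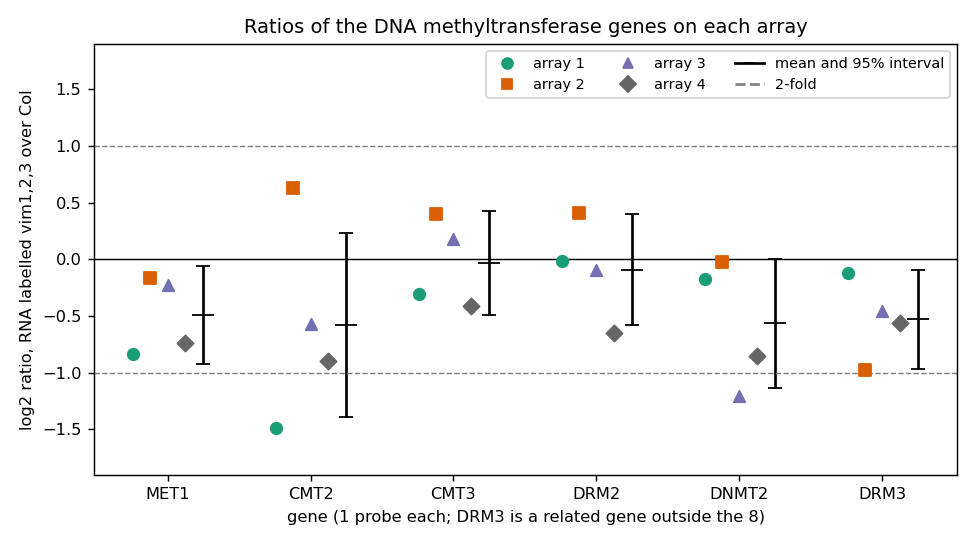
Log2 ratios, RNA labelled vim1,2,3 over Col, of the 5 measured methyltransferases and of the related gene DRM3, with 1 marker per array and the mean and 95% interval in limma. The intervals of CMT2 and DNMT2 reach past a 2-fold fall, that of MET1 lies below 0 without reaching it, and those of CMT3 and DRM2 straddle 0.

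MET2a, CMT1 and DRM1 gave signals near the background of the arrays. MET2a is a relative of MET1, CMT1 a chromomethylase that is broken in many accessions, and DRM1 a close homologue of DRM2. The raw median signal of the MET2a probe was 95, 111, 98 and 76 in the RNA labelled vim1,2,3, against 63, 60, 64 and 57 in Col, not well above background in either RNA on any array. That of the first CMT1 probe was 165, 169, 167.5 and 139 in the RNA labelled vim1,2,3, against 122, 72, 89 and 156 in Col. It was well above background only in Col on array 4. The second CMT1 probe gave 134, 146.5, 73 and 80 in the RNA labelled vim1,2,3, against 87, 65, 60 and 72 in Col, and was not well above background anywhere. The DRM1 probe gave 110, 96, 104.5 and 137 in the RNA labelled vim1,2,3, against 65, 61, 65 and 105 in Col, again well above background only in Col on array 4. The higher raw values in Cy5 carry no direction, because the dimmest spots well above background also differ between dyes: the lowest such signal was 113 to 181 in Cy5 and 80 to 101 in Cy3. With the filter on dim probes lifted, the normalized ratios were 0.09 for MET2a, -0.08 for CMT1 and -0.01 for DRM1, with adjusted p-values of 0.658, 0.839 and 0.970 in limma.

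**Figure D3:**
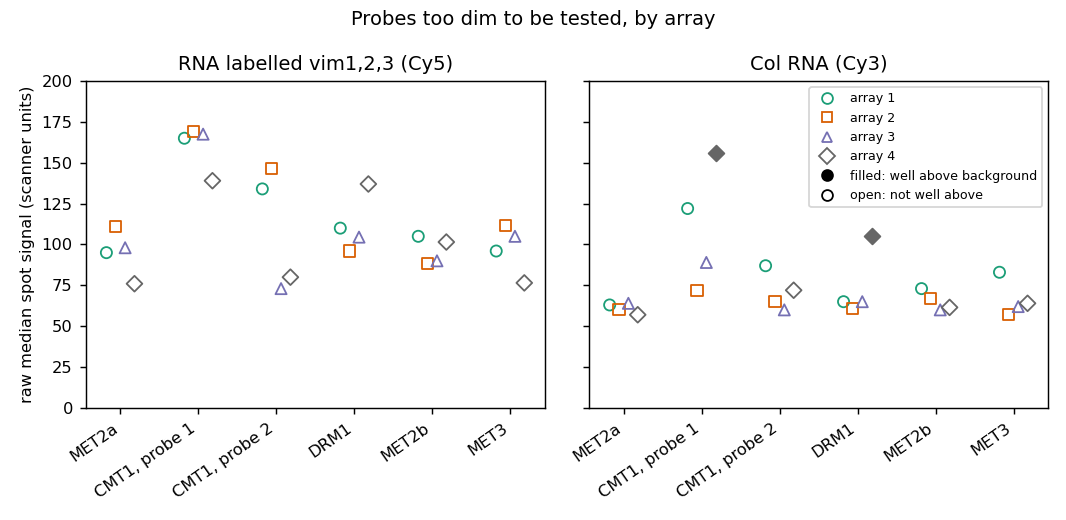
Raw median spot signals of the untested probes of MET2a, CMT1, DRM1, MET2b and MET3 on each array, with the RNA labelled vim1,2,3 on the left and Col on the right, and filled markers where the scanner software called the spot well above background. The filled markers are the first CMT1 probe and DRM1 in Col on array 4, and all other markers are open.

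Of 3 further genes related to the family, MET2b and MET3, both relatives of MET1, were as dim as MET2a in both RNAs. DRM3, a DRM relative that assists DRM2, was measured. Its log2 level was 8.45, 8.44, 8.03 and 7.94 in the RNA labelled vim1,2,3, against 8.57, 9.41, 8.49 and 8.50 in Col. The groups did not overlap, which was so for 14.5% of all genes tested, and the Col level on array 2 stood apart from the rest. The DRM3 ratio averaged -0.53 ± 0.35 (SD, n = 4), with an adjusted p of 0.102 in limma, and was not called. The probe was well above background on 3 of 4 arrays in the RNA labelled vim1,2,3.

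In ascending order of mean ratio the members were CMT2, DNMT2, MET1, DRM2 and CMT3. Neighbours in that order were compared by the exact sign-flip permutation test over arrays (two-sided, 4 pairs tested), whose smallest possible p with 4 arrays is 0.125. The test could therefore find no pair different at 0.05, and the pairs came from ranking the same ratios, so no conclusion on the order is drawn from it. The mean differences were 0.02 for DNMT2 minus CMT2 (p = 0.875, exact), 0.07 for MET1 minus DNMT2 (p = 0.875, exact) and 0.05 for CMT3 minus DRM2 (p = 1, exact). The widest step lay between DRM2 and MET1, at 0.40 ± 0.36 (SD, n = 4). DRM2 had the higher ratio on 4 of 4 arrays, by 0.82, 0.57, 0.13 and 0.08 (exact p = 0.125, 0.5 after Benjamini-Hochberg adjustment).

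Each of the 5 members had the highest of its 4 ratios on array 2. Among all genes 27.3% had their highest ratio on that array. The median ratio of the 5 members was -0.30, 0.40, -0.23 and -0.73 on arrays 1 to 4, against -0.04, -0.05, -0.05 and -0.04 for all genes tested. The loess normalization holds the median of all genes near 0 on each array, so the values for all genes give no measure of how far a median of 5 genes varies. Over the mean ratios the median was -0.49 for the 5 members that passed the filter on dim probes, against -0.05 for all genes tested. Over 8 of 8 members, with that filter lifted, it was -0.09, against -0.02 for all 25347 genes. The median of the 5 was -0.60 without array 2, -0.28 without array 1 and -0.10 from arrays 1 and 2 alone.

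**Figure D4:**
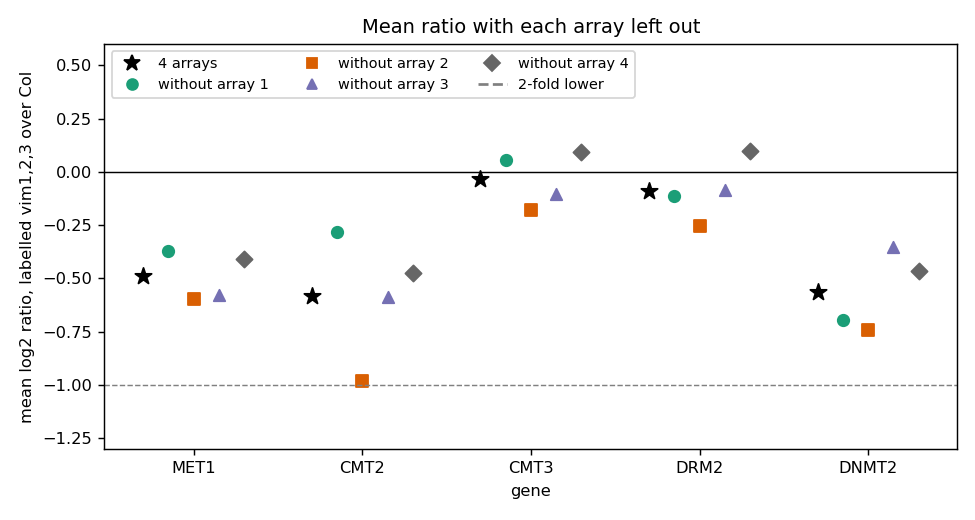
Mean log2 ratio, RNA labelled vim1,2,3 over Col, of each measured methyltransferase with 4 arrays and with 1 array left out. MET1, CMT2 and DNMT2 stay below 0 in each case, whereas CMT3 turns positive without array 1 or array 4 and DRM2 without array 4.

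Genes that work with the methyltransferases were examined as 8 lists of 81 genes in all, with DRM3, MET2b and MET3 as the list of relatives. Of 75 genes tested, 3 were called lower and 0 higher, beside 2.13% lower and 3.22% higher among all genes. Among 7 genes for CG maintenance, 2 were called lower and the list's median ratio was -0.12, against -0.05 for all genes. They were VIM1, itself named by the genotype, and VIM5, a further member of that family. VIM1 averaged -1.76 ± 0.77 (SD, n = 4; adjusted p = 0.0254 in limma), and its other probe -2.19. Without array 1 the ratio was -1.60 (adjusted p = 0.0769) and without array 3 it was -1.81 (adjusted p = 0.129), so the size held while the call was lost. VIM5 averaged -1.83 ± 0.27 (SD, n = 4; adjusted p = 0.00315 in limma), an estimated fall of 3.57-fold. Its probe was well above background on 0 of 4 arrays in the RNA labelled vim1,2,3, so the size of this fall is read near the floor. It passed the filter on dim probes through Col alone. DDM1, the chromatin remodeller needed for methylation of heterochromatin, had a ratio of -0.36 and an adjusted p of 0.205.

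Among 5 DNA demethylase genes, ROS1 was called lower and the list's median was -0.50. ROS1, the glycosylase that removes methylated cytosine in vegetative tissue, had ratios of -3.48, -3.62, -3.16 and -3.64. It averaged -3.47 ± 0.22 (SD, n = 4; adjusted p = 0.000122 in limma). The probe was well above background on 2 of 4 arrays in the RNA labelled vim1,2,3, so the size of the fall is read near the floor. This probe passed the filter on dim probes through Col, where it was well above background on 4 of 4 arrays. A dimmer ROS1 probe, well above background on 0 of 4 arrays in that RNA, gave -2.52. The demethylase DML3 was 1 more with an adjusted p under 0.05, at -0.85 and 0.0288, but it was short of 2-fold. Without array 1, 3 or 4 the adjusted p of DML3 was 0.0635, 0.138 and 0.108. The direction of ROS1 was the same on arrays 1 and 2 and on arrays 3 and 4, unlike that of VIM2 and VIM3. From arrays 1 and 2 alone the ratios were -3.55 for ROS1, -2.34 for VIM1 and -1.80 for VIM5. Among all genes tested, that pair of arrays called 53 higher and 0 lower, so nothing is read from the lack of a lower call there. With both RNAs required above background on 4 arrays, VIM1 was tested and called, and VIM5 and ROS1 were not tested.

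The lists of partners in the other methylation pathways held no called gene, with each gene read from its brightest tested probe. Among 4 measured genes that set or limit histone H3 lysine 9 methylation, on which chromomethylases depend, the median was 0.03. With the mean of all tested probes of a gene it was -0.13. SUVH6, a histone methyltransferase, had -0.16 (adjusted p = 0.602), and IBM1, a demethylase that protects genes from CMT3, had 0.24 (adjusted p = 0.628). Another IBM1 probe, well above background in both RNAs on 4 of 4 arrays, gave -1.47, -2.61, -2.19 and -2.49, a mean of -2.19. The remaining IBM1 probe gave a mean of -1.47. The IBM1 probes thus disagree, and the ratio of the gene rests on the probe chosen. SUVH5 and IBM2 were not tested. Among 25 measured genes of RNA-directed DNA methylation, 2 were higher and 5 lower at an unadjusted p under 0.05, beside 15.1% higher and 18.2% lower among all genes, and the median was -0.29. NRPE1, the largest subunit of RNA polymerase V, had -0.96 ± 0.25 (SD, n = 4; adjusted p = 0.0241 in limma), just short of 2-fold. Without array 2 it was -1.07 (adjusted p = 0.0246) and passed, and without array 1, 3 or 4 the adjusted p was 0.0729, 0.132 and 0.101. IDN2, which binds double-stranded RNA in that pathway, had -0.75 ± 0.37 (adjusted p = 0.0504).

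Genes of DNA replication and cell division were included because MET1 is expressed most in dividing cells. Of 20 measured, 1 was higher and 4 lower at an unadjusted p under 0.05, none was called, and the median was -0.20. The shares among all genes were again 15.1% higher and 18.2% lower. MCM4, a subunit of the replicative helicase, had -0.44 and KN, the cytokinesis syntaxin, had 0.53, each with an adjusted p of 0.0954. Other tested probes gave -0.06 for MCM4, and 0.34 and 0.17 for KN. For MCM2 the other probe gave 1.16 against -0.48 for the one used, and for TSO2 0.64 against -0.05. That of RBR1 was lower, at -0.92 against -0.43. With the mean of all tested probes of a gene, the median of this list was -0.18. Among 11 genes that supply the methyl donor, 3 were higher and 2 lower by the same rule, against the same shares, with a median of 0.04. FPGS1, a folylpolyglutamate synthetase, had -0.63 (adjusted p = 0.0505) and SAM2, an S-adenosylmethionine synthetase, had 0.48 (adjusted p = 0.0725). Both measured RNA cytosine methyltransferases that act beside DNMT2 were uncalled, TRM4A at -0.27 and TRM4B at -0.31, with adjusted p-values of 0.254 and 0.287.

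**Figure D5:**
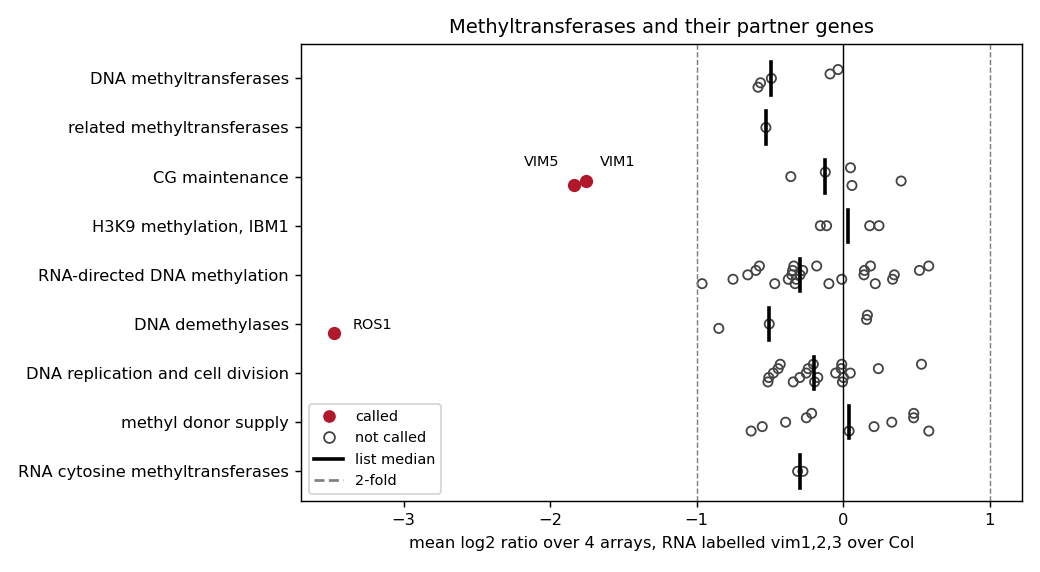
Mean log2 ratio, RNA labelled vim1,2,3 over Col, of each measured gene in the methyltransferase family and in the partner lists, with list medians as bars and 2-fold as dashed lines. VIM5, VIM1 and ROS1 are the called genes, all to the left of a 2-fold fall, and the methyltransferases lie between -0.58 and -0.03.

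Organ markers were read beside these values. Of 3 flower genes, PI was called lower at -2.20 ± 0.69 (SD, n = 4; adjusted p = 0.0113 in limma), and without array 3 it was -2.25 (adjusted p = 0.0816). Its probe was well above background on 2 of 4 arrays in the RNA labelled vim1,2,3, as were those of AG and AP3, so each passed the filter on dim probes through Col. With both RNAs required above background on 4 arrays, PI was not tested. AG had -0.92 (adjusted p = 0.0449) and AP3 -0.60 (adjusted p = 0.448), and the list's median was -1.63, -2.26, -0.74 and -0.53 on arrays 1 to 4. Shoot meristem genes differed in sign, STM at -0.81 (adjusted p = 0.0509) and CLV3 at 0.74 (adjusted p = 0.0766), while WUS was not tested. The probes chosen for the leaf genes RBCS1A and LHCB1.1 were saturated on 4 and 3 arrays in the RNA labelled vim1,2,3 and on 2 and 1 in Col, so no direction is read from them. The 4 RBCS1A probes with no saturated spot gave means of 0.29 to 0.53, but each was below 0 on array 4, at -0.49 to -0.11. The root genes PHT1;1 and WER had 0.67 and 0.04. The pollen gene VGD1 had 0.03 and the seed gene OLE1 0.42, while EXPA7 of root hairs and CRA1 of seeds were not tested. The part of organ makeup in the methyltransferase ratios was not tested.

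The 3 genes closest to a member over the 4 ratios were found by the root mean square difference of the log2 ratios. For MET1 they were AT1G06560 at 0.0547, AME3 at 0.0599 and AT1G11280 at 0.0632. For CMT3 they were AT5G57040 at 0.0337, AT2G01275 at 0.0519 and MIRO2 at 0.0563. For DRM2 they were CYP71B30P at 0.0535, AT3G20230 at 0.0541 and AT5G51280 at 0.0683. None of these belongs to the family or to a partner list.

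Genes beside the members on the chromosomes were also read. Of 32 positions, 2 on each side of each member, 23 held a tested gene, and 1 was called higher and 0 lower, beside 3.22% higher and 2.13% lower among all genes. The called gene was AT5G15360, 2 places before DRM1, which rose by 3.74 ± 0.22 (SD, n = 4; adjusted p = 9.54e-05 in limma). DRM1 itself was too dim for a value to be set beside it. AT4G14145 beside MET2a had -0.76 (adjusted p = 0.0326) and SK13 beside DRM2 had -0.74 (adjusted p = 0.0405), both short of 2-fold.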

How the data were processed

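Per the file headers, the scanner files come from Feature Extraction 10.7.3.1. As deposited, they give each spot's median intensity per dye on a linear scale. Per the file headers, background with a spatial trend was removed from the processed intensity, dyes were then balanced by linear and lowess steps, and the scanner's log ratio is a log10 of red over green. The deposited series matrix, a table of log2 ratios used only as an alternative, followed the scanner ratio (r of 0.997 to 0.999 across probes), with column medians of -0.09, 0.01, -0.04 and -0.03, and how it was normalized and centred stays unknown.

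Median intensities were corrected with normexp (offset 50) and normalized by loess within arrays, with 1417 control spots of 45220 at weight 0 and 42 to 196 outlier spots per array left out. Mean signals had been planned, but the files hold medians. Levels of one RNA come from loess followed by Aquantile. Of 43603 probes, 34185 matched a locus through unversioned accessions in the RefSeq gene table (assembly TAIR10.1), used for names and gene order only. A gene was represented by its brightest tested probe. Log2 ratios were tested with limma 3.58.1 (lmFit, eBayes, Benjamini-Hochberg over all genes tested) in R 4.3.3, files were read with data.table (1.17.8), and the fit was tested on simulated data. The 4 arrays shared a slide and a scan, so no batch could be tested. VIM5 was not well above background in the RNA labelled vim1,2,3. Raising its dim signal to the lowest one that passed the background call, where that was higher, left its fold at 3.57. The fold is therefore an estimate and not a bound, and it is open to dye bias.

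Members and lists were chosen with earlier results of these data known. Named were all members and relatives, the called genes of each list (or the 2 of smallest p), and the 3 genes closest to MET1, CMT3 and DRM2. DDM1, DML3, VIM2, VIM3, VIM4, the organ markers and the chromosomal neighbours were named beside that rule, after their values were seen. Alternatives were another background offset, the scanner's processed signals, median centring, scaling between arrays, the series matrix, other filters and probe rules, array weights, and leaving out arrays.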

Additional observations from a re-analysis of the deposited data

Results flagged for a closer look

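In 34 sets of 4 array values, made of the members' and DRM3's ratios and levels and of list medians, the most distant value was compared with the others, and 2 sets had a value past the critical value of Dixon's test; chance gives such a value in about 1 set in 20. Array 2 gave a DRM3 level of 9.41 in Col, while the other arrays gave 8.57, 8.49 and 8.50. The median ratio of the histone H3 lysine 9 list, RNA labelled vim1,2,3 over Col, stood at 0.38 on array 2 and at -0.09, -0.07 and -0.09 on the other arrays. Both values lie on the array that also gave the 5 measured methyltransferases their highest ratios. Their directions differ, since the DRM3 ratio was at its lowest on that array, at -0.97. The part of array 2 in these values was not tested.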

How the results depend on the processing

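Under 15 alternatives, 0 methyltransferases were called. Not all of these could change the result. The other filters and probe rules left the ratios of the measured members as they were, since each has a single tested probe. Arrays 1 and 2 alone called 0 genes lower, so no member could be called lower there. MET1 (-0.69 to -0.37, adjusted p 0.0593 to 0.525), CMT2 (-0.98 to -0.28, adjusted p 0.0481 to 0.762) and DNMT2 (-0.77 to -0.10, adjusted p 0.0850 to 0.870) stayed below 0 in each. CMT3 ranged over -0.26 to 0.09 and DRM2 over -0.35 to 0.20. Leaving out 1 replicate gave CMT3 -0.18 to 0.092, with 0.055 without replicate 1 and 0.092 without replicate 4, and it was 0.050 with arrays 1 and 2 alone, and DRM2 was 0.10 without replicate 4 and 0.20 with arrays 1 and 2 alone.

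Counts over all genes depended more on the processing. The 660 higher and 437 lower calls (60.2% higher) became 570 and 784 (42.1% higher) with the scanner's processed signals, 635 and 876 (42.0%) with median centring, and 565 and 646 (46.7%) with the series matrix. The median of all genes was -0.14, -0.16 and -0.11 there, against -0.05. Leaving out 1 replicate gave 180 to 971 higher and 32 to 589 lower, the fewest without replicate 3. Arrays 1 and 2 alone gave 53 higher and 0 lower. Partner genes called lower, 3 in the reported fit, were 5 with the scanner's processed signals. They were 4 with median centring, with array weights or with the mean of all tested probes. They were 1 (VIM1) when both channels had to be above background on 4 arrays, which leaves VIM5 and ROS1 untested. Without 1 replicate they were 2 to 4, and with arrays 1 and 2 alone 0. The cause of the other shifts was not tested.

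No paired analysis was possible because the series holds 1 group of ratios, in which the array already pairs the RNAs. With 4 arrays of 1 dye orientation, dye effects on single probes and the VIM2 and VIM3 signals on arrays 3 and 4 limit every value.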
